A study of Mus musculus with 56 samples.

Results

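The libraries described here are the TGFβ-treated samples of β-catenin mutant mammary tumor cells, 12 of the 56 RNA-seq samples of the study. They were chosen as all TGFβ-treated samples whose cells carry 1 of 3 mutant β-catenin alleles, D164A, ΔC or dm, opposite a second allele that was either floxed or deleted. For each mutant allele there were 2 samples with the floxed second allele (D164A/fl, ΔC/fl and dm/fl) and 2 samples in which it had been deleted (D164A/-, ΔC/- and dm/-), so that 6 samples were compared with 6. All 12 had received TGFβ at 2 ng/ml for 4 days. The lines came from mammary tumors of MMTV-PyMT mice on the FVB/N background, in which a mammary tumor virus promoter drives the polyoma middle T oncogene. D164A is a substitution in β-catenin that removes binding of its coactivators Bcl9 and Bcl9l, whereas ΔC and dm are given as the sample labels spell them.

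Per the methods of the study, second alleles were deleted by infection with an adenovirus encoding Cre and GFP followed by sorting of GFP-positive cells, with a GFP adenovirus as the control for infection. Whether the floxed samples had received that control was not stated. By the study's account, the genotype of the sorted cells was checked by PCR. Fibroblasts were removed by differential trypsinization when the lines were made. How many independent lines stood behind a genotype was not given. The 2 replicates of a genotype are called biological duplicates, without a statement on whether they were separate cultures or separate lines. The p-values thus measure the spread between these samples. For the effect over the 3 mutants, that spread also holds the disagreement between mutants. A difference between deleted and floxed second allele therefore includes whatever else differed between the lines compared, and the 2 cannot be told apart. The samples held 22396315 to 31846078 reads assigned to genes, and 1 read corresponded to 0.0312 to 0.0486 CPM, the reads of a gene divided by a scaled library size. A gene was taken as detected in a sample above 3 reads, which is 0.0935 to 0.146 CPM, and such limits cover counting error only. Across genes, the 2 replicates of a genotype correlated at 0.977 to 0.991, and the means of deleted and floxed samples of a mutant at 0.901 to 0.933.

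β-catenin has separate functions in the cell. At the membrane it links cadherins to α-catenin and the actin cytoskeleton, and in the nucleus it binds TCF/LEF factors and recruits coactivators to Wnt target genes. TGFβ acts through receptor kinases and SMAD factors and drives mammary epithelial cells toward a mesenchymal state, the epithelial-mesenchymal transition (EMT), while restraining proliferation in many epithelia. A cell with a mutant and a floxed allele can still make the normal protein, and after Cre it can make the mutant protein alone.

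Ctnnb1 (Entrez 12387, chromosome 9 of GRCm38.p6 from 120933400 to 120960507), which encodes β-catenin, was the targeted gene. Its level was 966 and 1056 CPM in D164A/- against 874 and 892 CPM in D164A/fl, 3188 and 2552 in ΔC/- against 1288 and 1108 in ΔC/fl, and 1234 and 1061 in dm/- against 1343 and 1125 in dm/fl. Deleted samples were higher than floxed samples in ΔC, lay slightly above them in D164A and overlapped with them in dm. Over the 3 mutants the log2 fold change of 0.45 (SE 0.22, adjusted p = 0.231) did not pass the test (limma with Benjamini-Hochberg adjustment, as for all adjusted p-values here). Within ΔC the level rose with a log2 fold change of 1.26 (adjusted p = 0.000895), and the effect differed between the mutants (adjusted p = 0.00568). The count sums the reads of all exons, so it shows neither the substitution nor the exons removed by Cre and does not check the deletion.

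The question of the comparison was what changed in TGFβ-treated cells once the mutant allele was the only one left, in the same direction whichever mutant it was. Of 12859 genes tested, 80 were higher (0.622%) and 130 lower (1.01%) in deleted than in floxed samples, 210 in all (1.63%), taking as called an adjusted p up to 0.05 with a log2 fold change of 1 or more in size. In 177 of these (1.38%), both deleted samples also lay beyond both floxed samples in the same direction in each of the 3 mutants. These agreeing genes comprised 68 higher (0.529%) and 109 lower (0.848%) genes, with median log2 fold changes of 1.22 and -1.53, beside 0.01 over all genes tested. The call and the order of the groups came from the same samples. Disagreement between mutants works against a call, so the 177 of 210 are not a test of agreement. With replicate number within a mutant as a further block, which leaves fewer degrees of freedom, limma called 0 genes (1910 at an unadjusted p under 0.05), as the closing section sets out. Without the call, groups that did not overlap in any of the 3 mutants and lay in the same order were seen for 398 higher (3.1%) and 471 lower (3.66%) genes, 869 in all (6.76%). Called in each mutant on its own were 11 higher (0.0855%) and 29 lower (0.226%) genes, 40 in all (0.311%). The log2 fold changes are differences in log2(CPM + 1), which understate changes of genes near or below 1 CPM, and where a group lies at 3 reads or fewer they depend on the added 1 CPM and give no fold of the gene.

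The number of called genes depended on single libraries. It was 104 without replicate 1 and 153 without replicate 2 of D164A/fl, 81 and 240 without those of D164A/-, 114 without either of ΔC/fl, 102 and 127 without those of ΔC/-, 72 and 134 without those of dm/fl, and 92 and 142 without those of dm/-. The agreeing genes numbered 100 and 144, 79 and 216, 114 and 114, 101 and 122, 72 and 131, and 92 and 141 in the same order. Of the 66 called genes named here, 33 remained called without replicate 1 of dm/fl, the fewest, and 56 without replicate 2 of D164A/-, the most. With a mutant left out whole, 1148 genes were called without D164A, 513 without ΔC and 184 without dm.

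**Figure D1:**
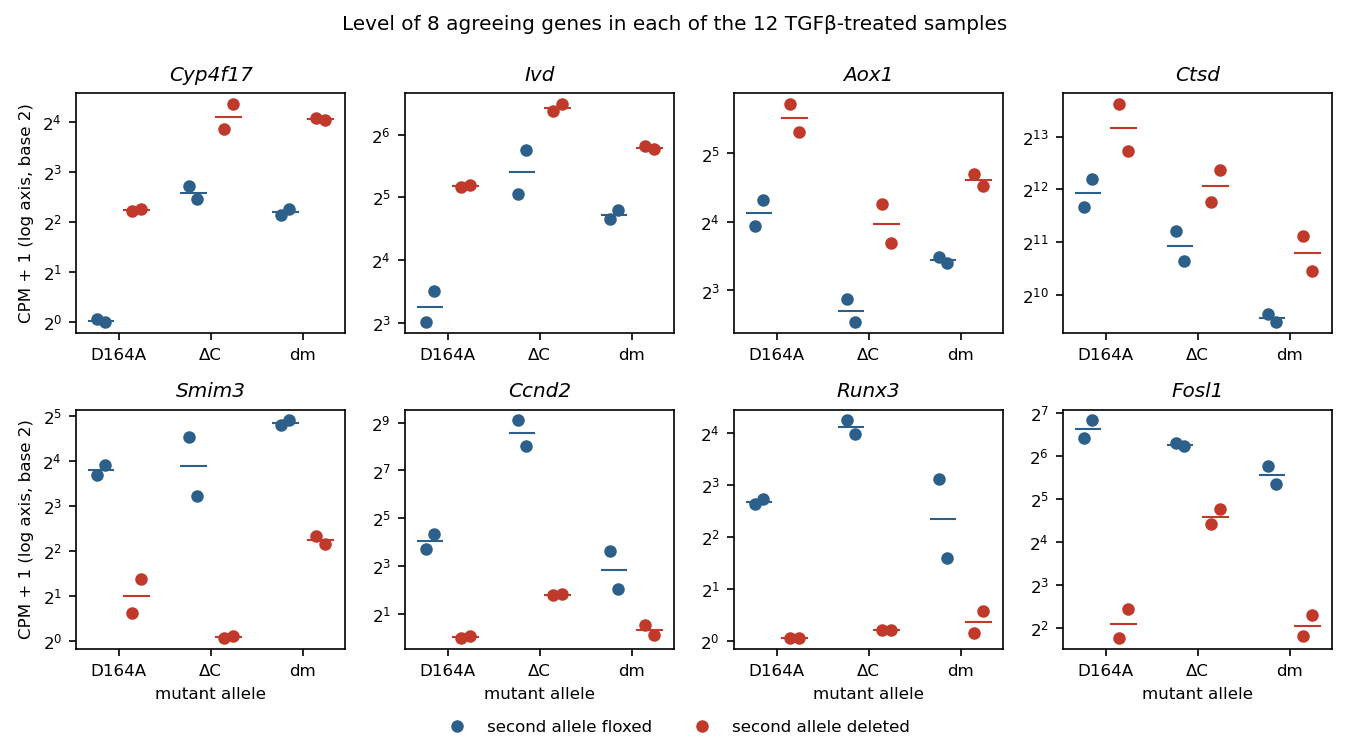
Level of 8 agreeing genes in each of the 12 TGFβ-treated samples, as CPM + 1 on a log axis of base 2, by mutant allele; each dot is a sample, blue with the floxed and red with the deleted second allele, and bars are means of the 2 log values. In the upper 4 genes both red dots lie above both blue dots in every mutant, as for Cyp4f17 at 13.5 and 19.4 CPM in ΔC/- and 5.54 and 4.51 CPM in ΔC/fl, and in the lower 4 genes both lie below.

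Among the agreeing genes that were lower, the 12 with the largest change in their least affected mutant were Smim3, Ccnd2, Runx3, Ddr2, Moxd1, Adh7, Aldh1l2, Fstl3, Crabp2, Bend6, Fosl1 and Dgkh. Ccnd2 encodes cyclin D2, which activates Cdk4 and Cdk6 at the start of the cell cycle. Its level was 0 and 0.0733 CPM in D164A/- against 12.3 and 19.3 CPM in D164A/fl, 2.47 and 2.57 in ΔC/- against 542 and 259 in ΔC/fl, and 0.454 and 0.0991 in dm/- against 11.3 and 3.12 in dm/fl. Floxed samples were far higher in every mutant, and the gap in log2(CPM + 1) was largest in ΔC. The D164A/- samples held 0 and 2 reads, so the size of the change in D164A depends on the added 1 CPM. The log2 fold change of -4.41 (SE 0.60, adjusted p = 0.00846) was called, and the separate values were -3.99 in D164A, -6.74 in ΔC and -2.50 in dm.

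Runx3 (Entrez 12399), a runt-domain factor that works with SMADs downstream of TGFβ, had 0.0441 and 0.0366 CPM in D164A/- against 5.195 and 5.63 CPM in D164A/fl, 0.154 and 0.158 in ΔC/- against 17.9 and 14.7 in ΔC/fl, and 0.114 and 0.496 in dm/- against 7.67 and 2.01 in dm/fl. Fosl1 (Entrez 14283), which encodes the AP-1 subunit Fra-1, had 2.38 and 4.398 CPM in D164A/- against 84.5 and 112 CPM in D164A/fl, 20.2 and 26.2 in ΔC/- against 77.3 and 74.2 in ΔC/fl, and 2.499 and 3.9 in dm/- against 53.7 and 39.7 in dm/fl. Runx3 was under 1 CPM in every deleted sample and above 2 CPM in every floxed sample, and Fosl1 dropped to a few CPM in D164A/- and dm/- but stayed above 20 CPM in ΔC/-. The test gave a log2 fold change of -2.83 (SE 0.34, adjusted p = 0.00569) for Runx3 and a log2 fold change of -3.24 (SE 0.40, adjusted p = 0.00632) for Fosl1. The effects on Fosl1 were -4.53 in D164A, -1.67 in ΔC and -3.51 in dm and differed between mutants (adjusted p = 0.000889). Bend6, a BEN-domain corepressor of Notch-dependent transcription, was lower with a log2 fold change of -2.20 (SE 0.21, adjusted p = 0.00188), and its highest deleted sample had 1.503 CPM against 2.83 CPM in the lowest floxed sample.

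Snai2 and Trp63 belonged to lists of EMT and mammary lineage genes and also agreed in all 3 mutants. Snai2 (Entrez 20583) encodes Slug, a zinc-finger repressor of epithelial genes that TGFβ induces. It was at 1.23 and 2.13 CPM in D164A/- against 8.28 and 12.2 CPM in D164A/fl, 4.75 and 2.65 in ΔC/- against 58.1 and 20.7 in ΔC/fl, and 0.114 and 0.0991 in dm/- against 2.62 and 1.81 in dm/fl. Each deleted group lay below its floxed group, and the dm lines had little Snai2 with either second allele. The log2 fold change of -2.19 (SE 0.31, adjusted p = 0.00922) came from effects of -2.07 in D164A, -2.97 in ΔC and -1.53 in dm. Trp63 (Entrez 22061) encodes p63, the master regulator of basal epithelial cells. Its values were 8.51 and 4.84 CPM in D164A/- against 26.1 and 38.7 CPM in D164A/fl, 0.0772 and 0.0395 in ΔC/- against 1.75 and 1.06 in ΔC/fl, and 1.401 and 0.397 in dm/- against 10.5 and 12.03 in dm/fl. They were highest in D164A/fl and lowest in ΔC/-, where no sample exceeded 3 reads, and the log2 fold change of -2.02 (SE 0.28, adjusted p = 0.00922) was called.

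Ddr2 (Entrez 18214), a receptor tyrosine kinase for fibrillar collagen, was at 1.45 and 1.099 CPM in D164A/- against 22.1 and 22.4 CPM in D164A/fl, 0.386 and 0.119 in ΔC/- against 117 and 40.7 in ΔC/fl, and 3.71 and 7.11 in dm/- against 48.5 and 10.5 in dm/fl. Fstl3 (Entrez 83554), a secreted antagonist of activins and related TGFβ family ligands, was at 2.204 and 2.38 CPM in D164A/- against 10.2 and 12.04 CPM in D164A/fl, 0.232 and 0.198 in ΔC/- against 7.64 and 4.297 in ΔC/fl, and 0.341 and 0.297 in dm/- against 16.7 and 22.5 in dm/fl. Both were lower in all deleted samples, with the widest gap for Ddr2 in ΔC and for Fstl3 in dm. The log2 fold change of -3.71 (SE 0.60, adjusted p = 0.0158) belonged to Ddr2 and the log2 fold change of -2.77 (SE 0.31, adjusted p = 0.00508) to Fstl3, and the mutants differed in the size of both effects (adjusted p = 0.0113 and 0.00259).

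Smim3, which encodes a small integral membrane protein, had 0.529 and 1.58 CPM in D164A/- against 11.9 and 14.1 CPM in D164A/fl, 0.0386 and 0.079 in ΔC/- against 22.3 and 8.38 in ΔC/fl, and 4.05 and 3.47 in dm/- against 27.1 and 29.1 in dm/fl. The ΔC/- samples held 1 and 2 reads of it. Its log2 fold change of -3.08 (SE 0.28, adjusted p = 0.00188) carried effects of -2.82 in D164A, -3.80 in ΔC and -2.61 in dm with no call for a difference between them (adjusted p = 0.155). Dgkh, a kinase that phosphorylates diacylglycerol, fell by 2.32 on the log2 scale (SE 0.23, adjusted p = 0.00216), with deleted samples from 0.397 to 1.06 CPM (median 0.712) and floxed samples from 4.799 to 13.4 CPM (median 7.38). Moxd1, a copper monooxygenase of the dopamine β-hydroxylase family, had deleted samples from 0.985 to 17.2 CPM and floxed samples from 9.46 to 115 CPM. Over all mutants these ranges overlap, the ΔC/- samples lying above the D164A/fl samples, while within each mutant the groups were apart (log2 fold change -2.52, SE 0.29, adjusted p = 0.00512).

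Adh7 and Crabp2 act on retinoids, the first as an alcohol dehydrogenase able to oxidize retinol and the second as a binding protein that carries retinoic acid to its receptors. Adh7 stood at 9.699 and 11.7 CPM in D164A/- against 45.6 and 38.3 CPM in D164A/fl, 8.49 and 3.397 in ΔC/- against 39.3 and 17.9 in ΔC/fl, and 0.379 and 0.264 in dm/- against 21.97 and 22.7 in dm/fl. Crabp2 stood at 11.7 and 15.8 CPM in D164A/- against 52.4 and 46.6 CPM in D164A/fl, 2.82 and 1.896 in ΔC/- against 40.4 and 15.8 in ΔC/fl, and 2.76 and 1.39 in dm/- against 104 and 82.3 in dm/fl. Both were lower in all 3 mutants, and the gap was widest in dm, where Adh7 was below 1 CPM in both deleted samples. Adh7 had a log2 fold change of -2.71 (SE 0.39, adjusted p = 0.00922), and Crabp2 a log2 fold change of -3.25 (SE 0.46, adjusted p = 0.00922). The effects on Crabp2 were -1.79 in D164A, -2.99 in ΔC and -4.97 in dm.

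The agreeing genes that were higher changed less in size, and those described here of the leading ones were S100a8, Cyp4f17, Gdpd3, Ephb3, Klhdc7a, Nol4l, Aox1, Fgfrl1, Ctsd, Mxd1 and Ivd. Cyp4f17 (Entrez 208285), a member of the cytochrome P450 family that hydroxylates fatty acids, had 3.66 and 3.81 CPM in D164A/- against 0.0371 and 0 CPM in D164A/fl, 13.5 and 19.4 in ΔC/- against 5.54 and 4.51 in ΔC/fl, and 15.8 and 15.5 in dm/- against 3.397 and 3.81 in dm/fl. It was all but absent from D164A/fl, and both deleted samples of each mutant lay well above the floxed ones (log2 fold change 1.86, SE 0.18, adjusted p = 0.00188). Klhdc7a, a kelch-domain protein, showed the steepest rise of the leading higher genes. It was at 266 and 248 CPM in D164A/- against 25.5 and 34.2 CPM in D164A/fl, 40.9 and 27.5 in ΔC/- against 8.803 and 20.5 in ΔC/fl, and 167 and 90.7 in dm/- against 16.9 and 13.5 in dm/fl. The groups of every mutant were apart, most clearly in D164A and dm (log2 fold change 2.42, SE 0.33, adjusted p = 0.00888). Nol4l had 59.5 and 35.99 CPM in D164A/- against 14.3 and 23.8 CPM in D164A/fl, 6.06 and 7.78 in ΔC/- against 2.82 and 1.96 in ΔC/fl, and 114 and 97.4 in dm/- against 3.74 and 5.36 in dm/fl. The effects of 1.28 in D164A, 1.23 in ΔC and 4.28 in dm differed between mutants (adjusted p = 0.000499).

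Metabolic and lysosomal enzymes were among them. Ivd, the isovaleryl-CoA dehydrogenase of leucine breakdown, was at 35.05 and 35.6 CPM in D164A/- against 7.05 and 10.4 CPM in D164A/fl, 82.03 and 88.5 in ΔC/- against 32.1 and 52.8 in ΔC/fl, and 55.3 and 53.5 in dm/- against 24.2 and 26.8 in dm/fl. Aox1, a molybdenum-containing aldehyde oxidase, was at 51.6 and 38.8 CPM in D164A/- against 14.4 and 19.03 CPM in D164A/fl, 18.1 and 11.9 in ΔC/- against 6.32 and 4.81 in ΔC/fl, and 25.1 and 22.01 in dm/- against 10.2 and 9.53 in dm/fl. For both genes every deleted sample exceeded the floxed samples of its mutant, and the 3 effects on Aox1 were close, 1.38 in D164A, 1.27 in ΔC and 1.17 in dm (log2 fold change 1.27, SE 0.17, adjusted p = 0.00666). The log2 fold change of 1.34 (SE 0.19, adjusted p = 0.01001) of Ivd was of like size. Ctsd (Entrez 13033), the lysosomal aspartic protease cathepsin D and the most abundant of the leading genes, was at 12489 and 6767 CPM in D164A/- against 3258 and 4686 CPM in D164A/fl, 3469 and 5304 in ΔC/- against 2368 and 1603 in ΔC/fl, and 2228 and 1405 in dm/- against 803 and 718 in dm/fl. Its level differed more between mutants than between second alleles, but within each mutant the deleted samples were the higher ones, by 1.23 in D164A, 1.14 in ΔC and 1.22 in dm on the log2 scale (log2 fold change 1.20, SE 0.23, adjusted p = 0.0263). Gdpd3, which releases lysophosphatidic acid from lysophospholipids, had deleted samples from 7.52 to 26.4 CPM and floxed samples from 2.29 to 5.902 CPM, so that all 6 deleted samples exceeded all 6 floxed ones (log2 fold change 1.76, SE 0.22, adjusted p = 0.00632).

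Ephb3, a receptor tyrosine kinase for ephrin-B ligands that Wnt signaling controls in the intestine, and Fgfrl1, an FGF receptor that lacks the kinase domain, were higher as well. Ephb3 was at 97.8 and 57.4 CPM in D164A/- against 24.8 and 31.8 CPM in D164A/fl, 50.3 and 76.3 in ΔC/- against 19.99 and 26.4 in ΔC/fl, and 62.3 and 35.7 in dm/- against 13.1 and 18.1 in dm/fl. All 6 deleted samples exceeded all 6 floxed samples, with a log2 fold change of 1.44 (SE 0.20, adjusted p = 0.00922). Fgfrl1 was at 247 and 145 CPM in D164A/- against 70.6 and 85.4 CPM in D164A/fl, 70.1 and 109 in ΔC/- against 47.1 and 31.7 in ΔC/fl, and 31.8 and 27.6 in dm/- against 14.2 and 9.63 in dm/fl. Here too the groups of each mutant were apart (log2 fold change 1.23, SE 0.19, adjusted p = 0.0107). Mxd1, a transcription factor that pairs with Max and opposes Myc, was also among them. It had deleted samples from 15.6 to 33.1 CPM and floxed samples from 6.29 to 17.3 CPM (log2 fold change 1.24, SE 0.18, adjusted p = 0.01001). S100a8, a calcium-binding alarmin of neutrophils that stressed epithelia also make, was at 5.64 and 3.99 CPM in D164A/- against 0.816 and 1.05 CPM in D164A/fl, 17.1 and 8.33 in ΔC/- against 0.146 and 1.23 in ΔC/fl, and 27.4 and 101 in dm/- against 21.8 and 10.6 in dm/fl. Its replicates differed several-fold in dm/- and ΔC/fl without overlap of the groups, and the log2 fold change of 2.11 (SE 0.39, adjusted p = 0.0229) was called.

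**Figure D2:**
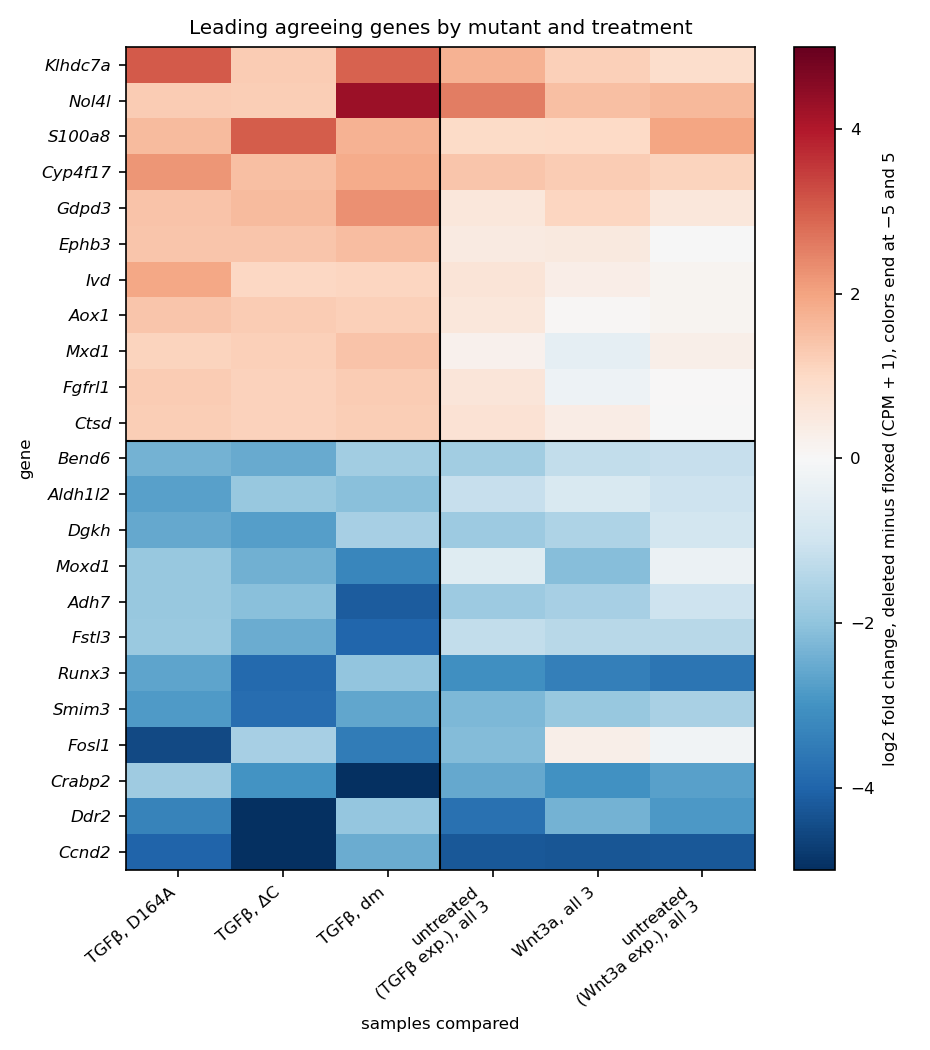
Log2 fold change, deleted minus floxed second allele, of 11 higher and 12 lower leading agreeing genes (one gene per line) in each TGFβ-treated mutant (left of the vertical line) and, over all 3 mutants together, in the samples without TGFβ or with Wnt3a (right of it); red is higher and blue lower with the deleted allele, and colors end at -5 and 5. Ccnd2, Runx3 and Smim3 are blue in every column, while Ctsd, Mxd1 and Fosl1 are pale in at least 1 column to the right.

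The remaining genes were read by pathway, in 27 lists, of which 15 held at least 1 called gene and 12 held none. In the list of the β-catenin complex, 2 of 17 members were called, both higher and both agreeing. Of all genes tested, 0.622% were called higher, and 0.529% were called higher and agreed. Jup encodes plakoglobin, the close relative of β-catenin that joins desmosomes and can also bind cadherins. Its level was 542 and 402 CPM in D164A/- against 235 and 359.8 CPM in D164A/fl, 607 and 1111 in ΔC/- against 280.4 and 224 in ΔC/fl, and 807 and 652 in dm/- against 346 and 429 in dm/fl. The deleted samples were higher in each mutant, and most clearly so in ΔC (log2 fold change 1.10, SE 0.22, adjusted p = 0.0325). Bcl9l, a coactivator that bridges β-catenin to Pygopus, was at 143 and 78.1 CPM in D164A/- against 49.6 and 65.7 CPM in D164A/fl, 84.1 and 159 in ΔC/- against 62.7 and 56.5 in ΔC/fl, and 175 and 89.9 in dm/- against 36.1 and 57.8 in dm/fl. Here the replicates of the deleted samples differed by nearly as much as the groups, and the log2 fold change of 1.09 (SE 0.25, adjusted p = 0.0414) lay close to the threshold. Ctnna1, which encodes α-catenin, had a log2 fold change of 0.57 (SE 0.12, adjusted p = 0.0375) and stayed under the fold required. The median of the list was 0.35.

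Wnt ligands and receptors included 1 higher and 1 lower gene among 23 tested, both agreeing, and their median was 0.02. Over all genes tested, 0.622% were higher and 1.01% lower. The receptor Fzd7, which binds Wnt ligands at the cell surface, was at 156 and 103 CPM in D164A/- against 54.96 and 83.9 CPM in D164A/fl, 60.3 and 53.1 in ΔC/- against 30.7 and 28.4 in ΔC/fl, and 84.98 and 99.8 in dm/- against 28.8 and 19.7 in dm/fl. All deleted samples exceeded the floxed ones of their mutant (log2 fold change 1.24, SE 0.21, adjusted p = 0.0183). The ligand Wnt5a, which mainly signals without β-catenin, was at 0 and 0 CPM in D164A/- against 0.223 and 0.194 CPM in D164A/fl, 0.193 and 0.158 in ΔC/- against 43.5 and 41.5 in ΔC/fl, and 1.51 and 3.14 in dm/- against 44.9 and 13.4 in dm/fl. Levels above 10 CPM were seen in ΔC/fl and dm/fl alone, and in D164A the order of the groups rests on 0 reads against 6 and 5 (log2 fold change -2.83, SE 0.66, adjusted p = 0.0459). Among 21 Wnt feedback and target genes limma called none and edgeR 1 higher and 2 lower, with a median of -0.30. By limma 5 of these 21 had an unadjusted p under 0.05, beside 3044 of all 12859 genes tested. Single mutants had 3 higher and 4 lower in D164A, 4 higher and 5 lower in ΔC and 3 higher and 4 lower in dm, beside 14.7%, 18.8% and 23.1% of all genes tested called in either direction in these mutants.

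In the TGFβ pathway and SMAD feedback list, 2 of 35 genes were called, Tgfbr1 as higher and Fstl3, given above, as lower. Of all genes tested, 0.622% were higher and 1.01% lower. Tgfbr1 encodes the type I receptor kinase of TGFβ. It was at 44.2 and 47.3 CPM in D164A/- against 45.5 and 34.4 CPM in D164A/fl, 332 and 196 in ΔC/- against 47.6 and 51.5 in ΔC/fl, and 361 and 538 in dm/- against 163.5 and 139 in dm/fl. The samples of D164A overlapped, so the gene did not agree, while ΔC/- and dm/- lay above their floxed groups (log2 fold change 1.36, SE 0.31, adjusted p = 0.0415). Of 29 TGFβ target genes, 3 were lower, Snai2 and Tgfbi among them, and the median was -0.43. Tgfbi, a secreted matrix protein, was at 0 and 0 CPM in D164A/- against 0 and 0.194 CPM in D164A/fl, 4.82 and 3.99 in ΔC/- against 19.5 and 28.4 in ΔC/fl, and 0 and 0.231 in dm/- against 5.703 and 10.1 in dm/fl. It had 0 reads in every D164A sample except 1 at 5 reads, so that the groups overlapped there (log2 fold change -1.76, SE 0.40, adjusted p = 0.0433).

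Of 49 collagens and matrix genes, 3 were lower over the 3 mutants, and the median was -0.41. Of all genes tested, 1.01% were lower and 0.622% higher. The α2 chain gene of collagen V, Col5a2, was at 0.705 and 0.8796 CPM in D164A/- against 11.1 and 19.7 CPM in D164A/fl, 0.8103 and 0.079 in ΔC/- against 2.24 and 0.979 in ΔC/fl, and 33.3 and 63.2 in dm/- against 265 and 75.6 in dm/fl. That of collagen VI, Col6a2, was at 0.529 and 0.183 CPM in D164A/- against 1.002 and 2.796 CPM in D164A/fl, 0.232 and 0 in ΔC/- against 25.4 and 21.3 in ΔC/fl, and 0.227 and 0 in dm/- against 3.77 and 1.12 in dm/fl. Both agreed in the 3 mutants, Col5a2 with its largest levels in dm and Col6a2 in ΔC/fl, and their log2 fold changes were -1.87 (SE 0.43, adjusted p = 0.0448) and -2.34 (SE 0.51, adjusted p = 0.0403). Loxl3, a lysyl oxidase that cross-links collagen, had a log2 fold change of -1.47 (SE 0.31, adjusted p = 0.0355), but in D164A the samples overlapped. Among 34 proteases and inhibitors, Ctsd was higher and 2 genes were lower, among them the metalloprotease gene Adamts1 (log2 fold change -1.81, SE 0.42, adjusted p = 0.0462 for Adamts1, which overlapped in D164A).

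The remaining lists held 1 or 2 called genes each, beside 0.622% of all genes tested that were higher and 1.01% that were lower. Of 42 epithelial junction and polarity genes, Prss8, a membrane-anchored serine protease of epithelia, was higher. It was at 39.1 and 30.3 CPM in D164A/- against 15.4 and 25.1 CPM in D164A/fl, 34.5 and 58.8 in ΔC/- against 6.61 and 10.3 in ΔC/fl, and 40.6 and 26.9 in dm/- against 4.86 and 5.59 in dm/fl. Both deleted samples lay above the floxed ones in every mutant (log2 fold change 1.85, SE 0.31, adjusted p = 0.0169). Of 27 mesenchymal and EMT genes Snai2 and Ncam1, a homophilic adhesion molecule, were lower. Ncam1 was at 13.5 and 33.3 CPM in D164A/- against 100.2 and 69.1 CPM in D164A/fl, 33.3 and 31.3 in ΔC/- against 253 and 114 in ΔC/fl, and 98.01 and 145 in dm/- against 251 and 221 in dm/fl. Its deleted samples lay below the floxed ones in each mutant, least in dm (log2 fold change -1.75, SE 0.30, adjusted p = 0.0183). Of 29 p53 target genes Dcxr, a xylulose reductase, was higher (1.41, adjusted p = 0.0294) and Eda2r, a receptor of the TNF receptor family on the X chromosome, lower (-2.35, adjusted p = 0.0454). Of 43 interferon-stimulated genes Mx1 was higher (1.32, adjusted p = 0.0373), at levels under 5 CPM in every sample. Of 28 genes of glycolysis and hypoxia the ER oxidase gene Ero1a was lower (-1.13, adjusted p = 0.0433).

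Of 36 chemokines and cytokines, 2 growth factors were lower, beside 1.01% of all genes tested. They were Csf1, which supports macrophages, and Hbegf, a ligand of the EGF receptor. Csf1 was at 102 and 136 CPM in D164A/- against 396 and 502 CPM in D164A/fl, 215 and 192 in ΔC/- against 584 and 533 in ΔC/fl, and 288 and 272 in dm/- against 292 and 325 in dm/fl. In dm the deleted samples were only just below the floxed ones, and the log2 fold change of -1.17 (SE 0.25, adjusted p = 0.0389) combined effects of -1.91 in D164A, -1.45 in ΔC and -0.14 in dm, which differed (adjusted p = 0.0008601). Hbegf had a log2 fold change of -1.55 (SE 0.37, adjusted p = 0.0484) and overlapped in ΔC. Of 15 genes of the Notch pathway the ligand gene Dll1 was higher (log2 fold change 1.53, SE 0.35, adjusted p = 0.0447), and it overlapped in dm. Of 24 mammary lineage genes Trp63 alone was called. No gene was called by limma in the lists of keratins (12 tested), integrins (19), contractile and YAP/TEAD target genes (30), cell cycle and replication (42), cholesterol and fatty acid synthesis (28), ER chaperones and stress response (25), cadherins and protocadherins (16) or the Cdkn2a, Cdkn2b and Mtap stretch (6). With the Wnt target, marker and identity lists, these 12 lists held 222 tested members, counting a gene such as Krt8 or Cdh1 once for each list that holds it. Of these members, 55 had an unadjusted p under 0.05, beside 3044 of all 12859 genes tested. By edgeR 1 was higher and 5 lower, beside 124 and 218 over all genes. The study's supplementary list of TGFβ-regulated genes affected in D164A and mutants of Bcl9 and Bcl9l has 302 entries, more than the study's text counts. This list gave 3 higher and 12 lower of 290 tested, beside 0.622% and 1.01% of all genes tested. It held Srgap3 (1.13, adjusted p = 0.00632) and Ptchd1 (-1.41, adjusted p = 0.0183) among the agreeing 3 higher and 6 lower, beside 0.529% and 0.848% of all genes tested. The list was chosen on some of these samples and is not independent evidence of its direction.

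Enzymes that make serine and feed its carbon into folates stood out when the agreeing genes were read, and a list of 17 tested members was drawn up after their values had been seen, so it has no test. Of these, 7 were called, all lower and all agreeing, and the median of the 17 was -1.09. Over all genes tested, 1.01% were called lower, and 0.848% were called lower and agreed. Phgdh catalyzes the first step of serine synthesis. Its values were 17.4 and 15.5 CPM in D164A/- against 55.4 and 56.8 CPM in D164A/fl, 37.6 and 57.7 in ΔC/- against 92.8 and 69.6 in ΔC/fl, and 34.2 and 22.3 in dm/- against 47.5 and 39.9 in dm/fl. Psat1 follows it in the pathway, at 253 and 281 CPM in D164A/- against 535 and 572 CPM in D164A/fl, 114 and 106 in ΔC/- against 672 and 479.9 in ΔC/fl, and 85.4 and 141 in dm/- against 247 and 174 in dm/fl. Every deleted sample was lower than the floxed samples of its mutant, and for Psat1 the gap was widest in ΔC. Shmt2, the mitochondrial enzyme that splits serine into glycine and a folate-bound carbon, was at 102 and 89.7 CPM in D164A/- against 191 and 254 CPM in D164A/fl, 135 and 227 in ΔC/- against 627 and 307 in ΔC/fl, and 89.3 and 90.3 in dm/- against 181 and 160.1 in dm/fl. Mthfd2, the mitochondrial dehydrogenase that follows, was at 49.2 and 55.5 CPM in D164A/- against 248 and 279 CPM in D164A/fl, 84.6 and 75.5 in ΔC/- against 208 and 98.9 in ΔC/fl, and 42.98 and 59.8 in dm/- against 117 and 74.5 in dm/fl. The groups were again apart in each mutant, although for Mthfd2 replicate 2 of ΔC/fl and of dm/fl came close to the deleted samples.

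The log2 fold changes were -1.04 for Phgdh (adjusted p = 0.0333), -1.44 for Psat1 (adjusted p = 0.0183), -1.14 for Shmt2 (adjusted p = 0.0183) and -1.34 for Mthfd2 (adjusted p = 0.0356). The cytosolic enzyme gene Shmt1 (-1.32, adjusted p = 0.0316), the mitochondrial formate-producing enzyme gene Mthfd1l (-1.49, adjusted p = 0.01001) and Aldh1l2, which oxidizes the formyl group of mitochondrial folate (-2.23, adjusted p = 0.0212), completed the set. Called in D164A on its own were 6 lower, in ΔC 6 lower and in dm 7 lower and 1 higher of the 17, beside 7.84%, 9.86% and 11.9% of all genes tested that were lower. Cells left without treatment in the TGFβ experiment had log2 differences of -0.51 for Phgdh, 0.05 for Psat1, -0.18 for Shmt1, -0.10 for Shmt2, -0.63 for Mthfd1l, 0.39 for Mthfd2 and -1.15 for Aldh1l2. None of the 7 passed the test there, with Wnt3a or in untreated cells of the Wnt3a experiment. In the limma test of deletion by TGFβ, set out below, none of the 7 was called either. The adjusted p ran from 0.249 for Psat1 to 0.864 for Aldh1l2, so these calls do not show an effect particular to TGFβ.

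**Figure D3:**
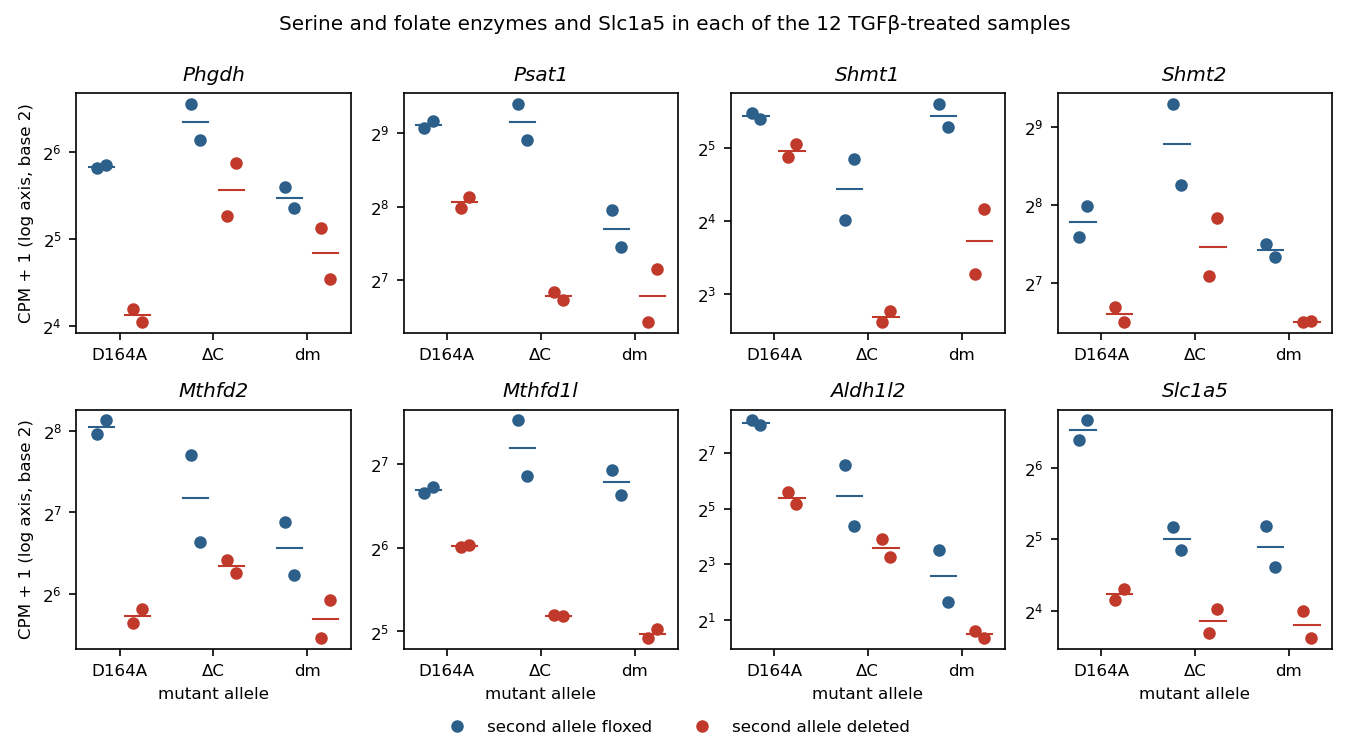
Level of 7 serine and folate enzymes and the transporter Slc1a5 in each of the 12 TGFβ-treated samples, as CPM + 1 on a log axis of base 2, by mutant allele; each dot is a sample, blue with the floxed and red with the deleted second allele, and bars are means of the 2 log values. Both red dots lie below both blue dots in every mutant for all 8 genes, as for Psat1 at 85.4 and 141 CPM in dm/- and 247 and 174 CPM in dm/fl.

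Related groups were listed in the same way, after their values had been seen, so they have no test either. Their counts over all mutants together stand beside 1.01% of all genes tested that were called lower and 0.622% called higher. Of 20 cytosolic aminoacyl-tRNA synthetases, 2 were lower, Nars for asparagine (-1.20, adjusted p = 0.0286) and Rars for arginine (-1.03, adjusted p = 0.0185), and the median was -0.64. In D164A on its own 13 of the 20 were lower, in ΔC 1 and in dm 0, beside 7.84%, 9.86% and 11.9% of all genes tested, and the median in dm was -0.36. Of 10 amino acid transporters, Slc1a5, a carrier of glutamine, and Slc7a1, a carrier of arginine and lysine, were lower and Slc43a2, a carrier of large neutral amino acids, was higher. Slc1a5 was at 16.8 and 18.8 CPM in D164A/- against 82.8 and 100.1 CPM in D164A/fl, 11.8 and 15.2 in ΔC/- against 34.97 and 27.7 in ΔC/fl, and 14.96 and 11.2 in dm/- against 35.2 and 23.4 in dm/fl. It was lower in all deleted samples (log2 fold change -1.51, SE 0.23, adjusted p = 0.0107), whereas Slc7a1 (-1.46, adjusted p = 0.0414) and Slc43a2 (1.51, adjusted p = 0.0414) overlapped in 1 mutant each. Of 22 lysosomal enzymes and membrane proteins, Ctsd and Ctsa, the protective protein cathepsin A, were higher. Ctsa was at 79.4 and 55.9 CPM in D164A/- against 46.7 and 53.9 CPM in D164A/fl, 272 and 385 in ΔC/- against 114 and 89.9 in ΔC/fl, and 530.3 and 432 in dm/- against 93.6 and 87.4 in dm/fl. The groups were close in D164A, and levels were several times higher in ΔC/- and dm/- than in their floxed groups (log2 fold change 1.49, SE 0.28, adjusted p = 0.0261). Erbb3, a receptor of neuregulins that was read beside these, had 55.1 and 54.1 CPM in D164A/- against 32.3 and 39.6 CPM in D164A/fl, 84.9 and 142 in ΔC/- against 9.14 and 20.5 in ΔC/fl, and 93.9 and 45.6 in dm/- against 15.9 and 23.9 in dm/fl. The groups were apart in each mutant (log2 fold change 1.73, SE 0.37, adjusted p = 0.0375).

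Effects within single mutants were called by the fit with a coefficient per genotype. It calls 965 genes for the mean effect over the 3 mutants (318 higher and 647 lower), against the 210 of the additive fit above. Disagreement between mutants counts as spread in the additive fit and not in the fit per genotype. In D164A, 884 genes were higher (6.87%) and 1008 lower (7.84%), 1892 in all (14.7%). In ΔC, 1150 were higher (8.94%) and 1268 lower (9.86%), 2418 in all (18.8%), and in dm 1438 were higher (11.2%) and 1526 lower (11.9%), 2964 in all (23.1%). Leaving out replicate 1 of D164A/- reduced the D164A count to 1196. The effect of deletion differed between the mutants at 6842 genes (53.2%) in the F-test over the interaction terms. Of 5424 genes called in at least 1 mutant, 825 were called in opposite directions in at least 2. The difference was called at all of these, which opposite calls in the same fit all but imply. D164A and ΔC had 584 called genes in common, of which 201 moved the same way, 10.6% of those called in D164A and 8.31% of those called in ΔC. The other 383 moved in opposite directions. Of 598 that D164A and dm had in common, 264 moved the same way (13.95% and 8.91%) and 334 in opposite directions. Of 917 for ΔC and dm it was 600 (24.8% and 20.2%) and 317. Across all genes tested, Pearson's r between the effects was -0.166 for D164A and ΔC, -0.0874 for D164A and dm and 0.176 for ΔC and dm, a description over genes that are not independent replicates. Of the 177 agreeing genes, 86 (48.6%) were called for the difference. They were chosen for the same direction in all 3 mutants, so this share does not test them against all genes. Spearman's rho between the effect and GC content, over 12331 genes, was -0.254 in D164A, 0.267 in ΔC and 0.313 in dm. After removal of the GC trend, 7563 genes were called for the difference. Of the median effects by chromosome, the largest in size were 0.37 in D164A (chromosome 10), 0.48 in ΔC (chromosome 16) and -0.44 in dm (chromosome 3). The part of these shifts in the calls was not tested.

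**Figure D4:**
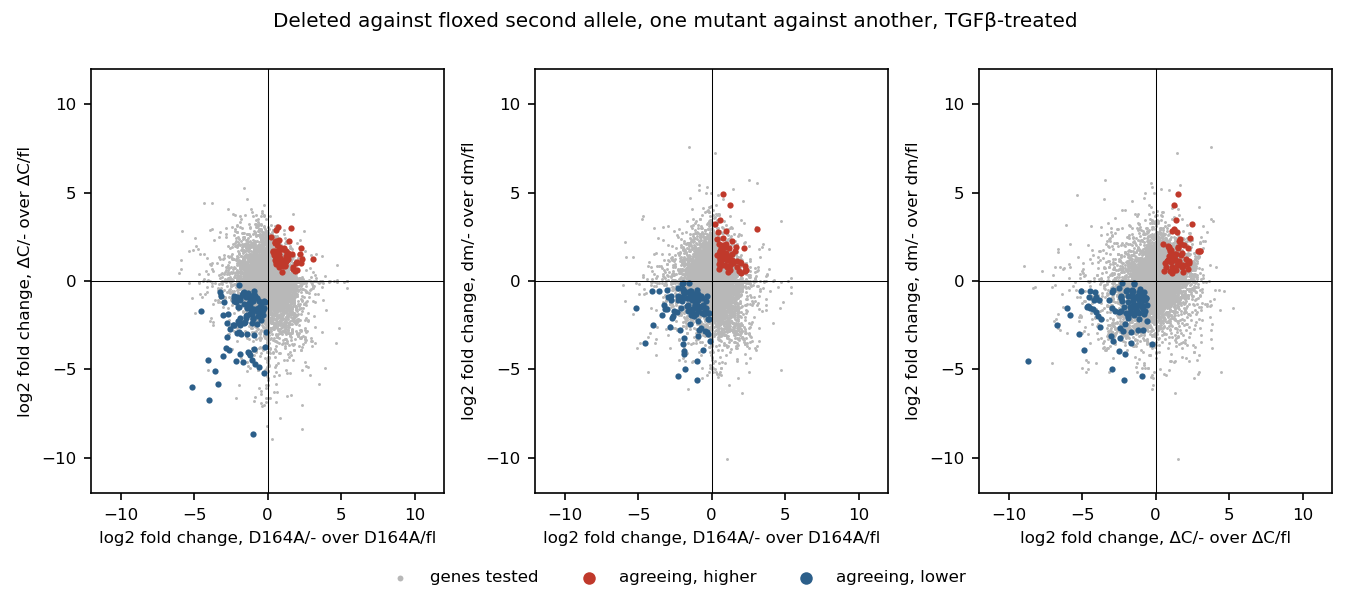
Log2 fold change, deleted minus floxed second allele, of each of the 12859 genes tested in a mutant (x axis) against that in another (y axis), TGFβ-treated; gray dots are all genes, red and blue dots the 68 higher and 109 lower agreeing genes. The gray clouds have no common direction, with r from -0.166 to 0.176, and the agreeing genes lie in the upper right and lower left corners by their definition.

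The effect on cell cycle and replication genes differed by mutant. Of 42 such genes, 24 were lower in ΔC and 38 were lower in dm, while in D164A only 5 were higher and 1 was lower. Over all genes tested, 6.87% were higher in D164A, 9.86% lower in ΔC and 11.9% lower in dm. Replicates stood apart across the list in 2 groups. Replicate 2 was more than 2 times replicate 1 at 36 of the 42 genes in ΔC/fl and at 32 in dm/- (median ratios 3.61 and 3.74), and the part of these libraries in the counts was not tested. The medians were 1.27, -1.82 and -2.41, beside -0.01, 0.02 and -0.01 over all genes tested, and 37 of the 42 (88.1%) were called for the difference between mutants, against 53.2% of all genes tested. Mki67, the marker of cycling cells chosen after its values were seen and 1 of the 5 higher genes in D164A, was at 265 and 423 CPM in D164A/- against 44.3 and 36.2 CPM in D164A/fl, 9.99 and 7.66 in ΔC/- against 38.6 and 271 in ΔC/fl, and 15.98 and 166 in dm/- against 691 and 890.1 in dm/fl. It was higher in D164A/- than in D164A/fl and lower in the deleted samples of the other mutants. Ccnb1, the gene of mitotic cyclin B1 and another of the 5, took the same directions, with 43.4 and 44.4 CPM in D164A/- against 12.1 and 11.96 CPM in D164A/fl, 1.47 and 1.19 in ΔC/- against 17.2 and 40.2 in ΔC/fl, and 5.49 and 24.6 in dm/- against 61.3 and 49.8 in dm/fl. In bulk RNA, fewer cycling cells and less RNA of these genes per cell cannot be told apart.

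The effects on epithelial and mesenchymal genes were read by mutant too. Of 42 epithelial junction and polarity genes, 2 were higher and 7 lower in D164A, 30 higher and 1 lower in ΔC, and 11 higher and 3 lower in dm, with medians of -0.24, 2.01 and 0.50. Of 27 mesenchymal and EMT genes, 4 were higher and 5 lower in D164A, 19 lower in ΔC, and 2 higher and 10 lower in dm. Over all genes tested, 6.87% were higher and 7.84% lower in D164A, 8.94% and 9.86% in ΔC, and 11.2% and 11.9% in dm. Cdh1, which encodes E-cadherin, was at 1051 and 830.1 CPM in D164A/- against 707 and 875 CPM in D164A/fl, 506 and 589 in ΔC/- against 73.4 and 49.9 in ΔC/fl, and 502 and 140.4 in dm/- against 173 and 159 in dm/fl. It was higher in ΔC/- than in ΔC/fl (log2 fold change 3.15, adjusted p = 0.00043), while in dm/- a replicate lay above and the other below the floxed samples. Vim, which encodes the mesenchymal filament protein vimentin, was at 1293 and 1139 CPM in D164A/- against 94.7 and 175 CPM in D164A/fl, 172 and 305 in ΔC/- against 2567 and 2660.3 in ΔC/fl, and 67.2 and 242 in dm/- against 1497 and 1216 in dm/fl. It was higher in D164A/- (log2 fold change 3.23, adjusted p = 0.00128) and lower in ΔC/- (-3.51, adjusted p = 0.000432) and dm/- (-3.39, adjusted p = 0.0005799), and the difference between mutants was called (adjusted p = 5.56e-05). For the lists, 34 of 42 epithelial (80.95%) and 19 of 27 mesenchymal genes (70.4%) were called for that difference, against 53.2% of all genes tested.

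**Figure D5:**
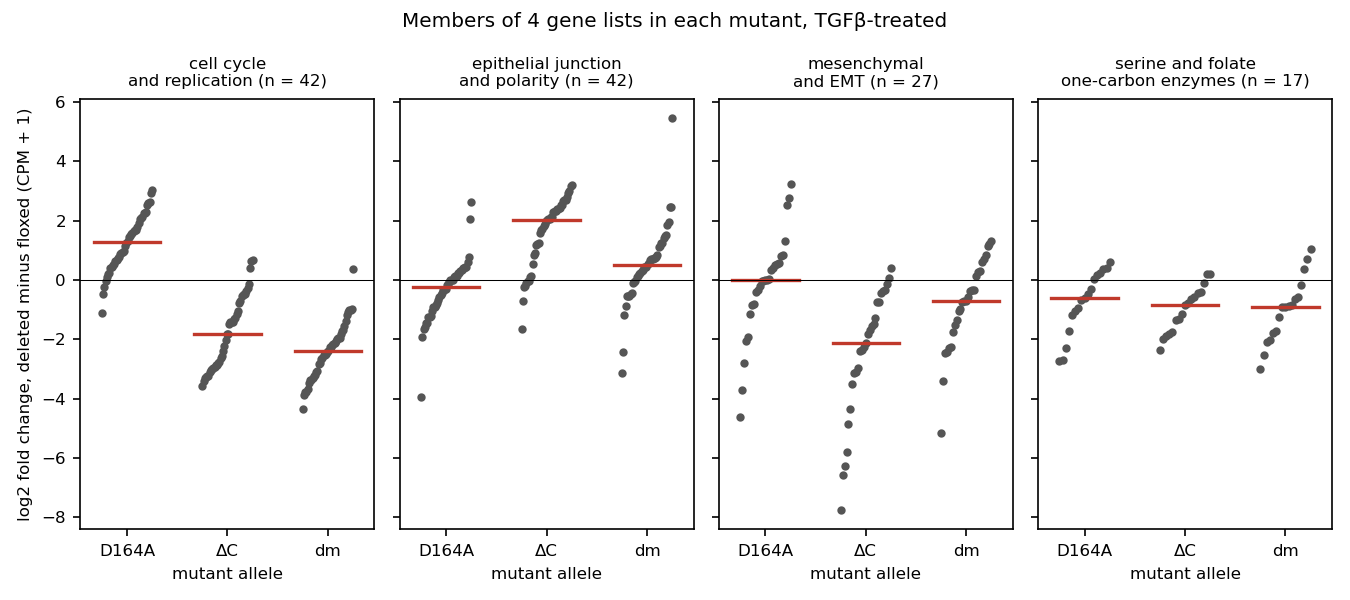
Log2 fold change, deleted minus floxed second allele, of each tested member (gray dots, sorted by value) of 4 gene lists in the 3 TGFβ-treated mutants; red bars are medians. Cell cycle genes have a median of 1.27 in D164A and -2.41 in dm, epithelial genes one of 2.01 in ΔC, and serine and folate enzymes, a list chosen after values were seen, medians below 0 in all 3.

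The cells were checked for mammary epithelial identity. Epcam was at 511 and 490.3 CPM in D164A/- against 513 and 581 CPM in D164A/fl, 466 and 516 in ΔC/- against 76.8 and 75.3 in ΔC/fl, and 236 and 90.1 in dm/- against 166 and 147 in dm/fl. Krt8, a keratin of luminal cells, was at 372 and 447 CPM in D164A/- against 182 and 296 CPM in D164A/fl, 1606 and 3373 in ΔC/- against 583 and 771 in ΔC/fl, and 474 and 405 in dm/- against 755 and 861 in dm/fl. Its partner Krt18 was at 639.8 and 880.3 CPM in D164A/- against 744 and 919 CPM in D164A/fl, 1913 and 3435 in ΔC/- against 414 and 615 in ΔC/fl, and 760.4 and 741 in dm/- against 698 and 774 in dm/fl. All were present in all 12 samples, and ΔC/fl was lowest in Epcam and Krt18. None of 11 tested identity genes was called over the 3 mutants by limma or by edgeR (median 0.82). By limma 3 had an unadjusted p under 0.05, beside 3044 of all 12859 genes tested. In ΔC/- 9 were higher, beside 8.94% of all genes tested. The summed level of the 12 genes was 3774 and 4252 CPM in D164A/-, 4247 and 5184 in D164A/fl, 8349 and 14122 in ΔC/-, 1692 and 2032 in ΔC/fl, 4262 and 3506 in dm/- and 3467 and 3987 in dm/fl, and Krt7 had the highest mean over the 12 samples, with a range from 376 to 5584 CPM. Krt19 did not exceed 3 reads in any sample. Grhl2, which encodes an epithelial transcription factor, was at 129.9 and 134 CPM in D164A/- against 147 and 133 CPM in D164A/fl, 168 and 125 in ΔC/- against 22.4 and 37.7 in ΔC/fl, and 141 and 84.4 in dm/- against 51.98 and 46.1 in dm/fl. It too was lowest in ΔC/fl.

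Markers of other cell types moved in single mutants. Of 8 tested fibroblast markers limma called none over the 3 mutants and edgeR 1. By limma 4 had an unadjusted p under 0.05, beside 3044 of all 12859 genes tested. In ΔC/- 7 of these markers were lower, beside 9.86% of all genes tested. Their 14 members summed to 638 and 301 CPM in D164A/-, 311 and 275 in D164A/fl, 33.3 and 28.6 in ΔC/-, 844 and 595 in ΔC/fl, 107 and 146 in dm/- and 179 and 121 in dm/fl. The highest mean over the 12 samples was that of Postn, a matrix protein gene that TGFβ also induces, at 492 and 210.0 CPM in D164A/- against 232 and 209 CPM in D164A/fl, 6.06 and 1.46 in ΔC/- against 329 and 165 in ΔC/fl, and 65.7 and 16.3 in dm/- against 28.6 and 11.5 in dm/fl. Of the 14, Fap, Lum and Thy1 did not exceed 3 reads in any sample.

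For immune cells, 1 of 6 tested markers was called, S100a8 as higher, beside 0.622% of all genes tested. The 14 in the data summed to 66.7 and 65.1 CPM in D164A/-, 37.96 and 61.00 in D164A/fl, 70.1 and 84.1 in ΔC/-, 31.03 and 40.1 in ΔC/fl, 114 and 188 in dm/- and 503 and 469 in dm/fl. The highest mean over the 12 samples was that of Csf1r, at 2.998 and 3.702 CPM in D164A/- against 1.67 and 2.41 CPM in D164A/fl, 9.03 and 18.4 in ΔC/- against 4.86 and 4.21 in ΔC/fl, and 40.2 and 45.1 in dm/- against 447 and 425 in dm/fl. In contrast, Ptprc, Cd3e, Adgre1 and C1qa did not exceed 3 reads in any sample. Csf1r made up most of the sum in dm/fl but a small part of it in D164A, and was lower in dm/- (adjusted p = 2.32e-05). Of the 6 tested markers it was the only one lower in dm/-, where 4 were higher, and 2 were higher in ΔC/-. Over all genes tested, 11.9% were lower and 11.2% higher in dm/-, and 8.94% were higher in ΔC/-. Of 4 tested endothelial markers none was called by limma or edgeR over the 3 mutants. By limma 1 of these markers had an unadjusted p under 0.05, beside 3044 of all 12859 genes tested. Their 12 members summed to 10.4 and 7.99 CPM in D164A/-, 16.1 and 18.9 in D164A/fl, 2.66 and 2.69 in ΔC/-, 13.5 and 20.9 in ΔC/fl, 31.6 and 18.7 in dm/- and 40.8 and 40.9 in dm/fl. Flt1 had the highest mean over the 12 samples, with a range from 0.0772 to 24.01 CPM, while Cldn5, Emcn and Tie1 lay at 3 reads or fewer throughout. Beyond these levels, the part of other cells in the results was not tested.

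The agreeing genes were then read in samples that had not chosen them, the same genotypes without TGFβ and with Wnt3a. In untreated cells of the TGFβ experiment (4 days), 100 genes were higher (0.768%) and 325 lower (2.5%) in deleted samples, and groups lay apart in all 3 mutants for 513 higher (3.94%) and 584 lower (4.49%) genes. Of the agreeing genes of TGFβ-treated cells, 28 of 68 higher and 50 of 106 lower ones tested lay apart in the same direction there, 41.2% and 47.2%. With Wnt3a at 100 ng/ml for 3 days, 13 genes were called higher (0.102%) and 78 lower (0.61%), groups lay apart for 200 higher (1.56%) and 363 lower (2.84%) genes, and 13 of 67 and 31 of 105 agreeing genes did so in the same direction. In the untreated cells of that experiment, limma called 0 genes higher (0%) and 20 lower (0.156%) with 1444 at an unadjusted p under 0.05, and edgeR called 9 higher and 78 lower. Groups lay apart there for 117 higher (0.915%) and 211 lower (1.65%) genes, and among the agreeing genes for 11 of 68 and 32 of 106. With replicate number within a mutant as a further block, limma called 45, 12 and 2 genes in these treatments, in the order given. The median effects of the agreeing higher genes were 0.72, 0.63 and 0.38, and those of the lower genes -1.17, -0.79 and -0.76, in the order of these treatments. All treatments were applied to the same 6 genotypes, so a difference between the lines behind them could appear in each.

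Of the agreeing genes tested in all 4 sets of samples, 4 of 67 higher (5.97%) and 22 of 104 lower ones (21.2%) lay apart in the same direction in each set. Of all genes that lay apart with TGFβ, called or not, 11 of 386 higher (2.85%) and 29 of 440 lower ones (6.59%) did so, which is 0.0896% and 0.236% of the 12274 genes tested in all 4. The 4 agreeing higher genes were Cyp4f17, Nol4l, Mapkapk3, a kinase activated by p38, and the predicted gene Gm13648. Among the 22 were Ccnd2, Runx3, Ddr2, Smim3, Bend6, Fstl3, Wnt5a, Col5a2, the small heat shock protein gene Hspb8, the tyrosine kinase gene Syk and Dpysl3, whose protein binds tubulin and actin. For Ccnd2 the log2 fold changes were -4.24 in untreated cells of the TGFβ experiment, -4.27 with Wnt3a and -4.26 in untreated cells of the Wnt3a experiment, beside -4.41 with TGFβ. For Runx3 they were -3.05 in untreated cells of the TGFβ experiment, -3.40 with Wnt3a and -3.65 in untreated cells of the Wnt3a experiment, beside -2.83. Hspb8 in TGFβ-treated samples was at 0.749 and 1.03 CPM in D164A/- against 61.5 and 71.8 CPM in D164A/fl, 1.003 and 0.237 in ΔC/- against 119.6 and 84.96 in ΔC/fl, and 78.3 and 64.6 in dm/- against 214 and 201 in dm/fl. The drop was smallest in dm, with effects of -5.16 in D164A, -6.02 in ΔC and -1.53 in dm. Other leading genes had smaller effects elsewhere. Ctsd had 0.74 in untreated cells of the TGFβ experiment, 0.37 with Wnt3a and -0.01 in untreated cells of the Wnt3a experiment. For Mxd1 the values in the same order were 0.20, -0.43 and 0.29. Fosl1 had -2.17, 0.28 and -0.17.

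Whether the effect of deletion was another one with TGFβ than without was tested as an interaction over the 24 treated and untreated samples of the TGFβ experiment. Of 13384 genes, limma called 0 (0%) and 1035 had an unadjusted p under 0.05. With edgeR there were 0 and 936. Leaving out ΔC/fl replicate 1 of the treated samples gave 2 genes, and leaving out a whole mutant gave 244 without D164A, 3 without ΔC and 1 without dm. For the agreeing genes the interaction ranged from -0.84 to 2.16 (median 0.57) among the higher and from -1.94 to 2.40 (median -0.52) among the lower ones, and 23 of 68 and 30 of 109 had an unadjusted p under 0.05. These genes were chosen for a large effect in the same treated samples, which pushes their interaction in the chosen direction, so the medians and these counts are not a test. Ephb3 had 0.98 (adjusted p = 0.343), Psat1 -1.49 (adjusted p = 0.249) and Moxd1 -1.91 (adjusted p = 0.241). A p that misses the threshold does not show that the effects were equal.

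Promoters of the agreeing genes were searched for letters bound by factors of these pathways, since the genes were chosen for moving together. Sequences of 300 bases, 250 before to 50 after an annotated start, came from RefSeq on GRCm38.p6 and were matched for 49 higher and 78 lower agreeing genes. A gene can have several starts, some of them inside the gene, and was counted when any of its sequences held the motif. The mean number per gene was 1.33 for the higher and 1.38 for the lower genes, beside 1.28 for genes tested. The TCF/LEF motif CTTTGAT, on either strand, was found for 0 of 49 higher and 6 of 78 lower genes (7.69%), beside 3.15% of 10179 genes tested and 4.29% of all 27025 genes with a sequence. The AP-1 motif TGANTCA was in 4 (8.16%) and 9 (11.5%), beside 6.7% and 8.97%, and the E-box CAGGTG, which Snail factors bind, in 15 (30.6%) and 17 (21.8%), beside 20.9% and 22.6%. Motifs were counted separately, a promoter can hold more than 1, and a match describes letters and is neither a site nor a cause. The 3 lower genes with the largest change among those holding the TCF/LEF letters are shown at the start where the letters lie, with the motif or its reverse complement in capitals.
Bcat1, which encodes the cytosolic branched-chain aminotransferase, was at 0 and 0 CPM in D164A/- against 0.5195 and 0.544 CPM in D164A/fl, 1.35 and 1.07 in ΔC/- against 87.4 and 46.8 in ΔC/fl, and 0.0379 and 0.0331 in dm/- against 33.5 and 5.98 in dm/fl. Its change was called (log2 fold change -3.13, SE 0.64, adjusted p = 0.0336), and the promoter is at chr6:145076108-145076407, minus strand.
Bcat1: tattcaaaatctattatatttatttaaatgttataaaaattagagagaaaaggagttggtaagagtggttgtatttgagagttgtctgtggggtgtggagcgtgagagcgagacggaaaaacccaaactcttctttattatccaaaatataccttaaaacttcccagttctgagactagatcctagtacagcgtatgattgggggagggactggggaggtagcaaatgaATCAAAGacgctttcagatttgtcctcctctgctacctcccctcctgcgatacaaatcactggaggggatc
Emp3, a tetraspan membrane protein gene, was at 1.45 and 3.15 CPM in D164A/- against 4.23 and 6.06 CPM in D164A/fl, 1.12 and 1.86 in ΔC/- against 12.4 and 30.5 in ΔC/fl, and 11.8 and 25.3 in dm/- against 163 and 153 in dm/fl. It fell in the test (log2 fold change -2.37, SE 0.41, adjusted p = 0.0183), and the promoter is at chr7:45921377-45921676, minus strand.
Emp3: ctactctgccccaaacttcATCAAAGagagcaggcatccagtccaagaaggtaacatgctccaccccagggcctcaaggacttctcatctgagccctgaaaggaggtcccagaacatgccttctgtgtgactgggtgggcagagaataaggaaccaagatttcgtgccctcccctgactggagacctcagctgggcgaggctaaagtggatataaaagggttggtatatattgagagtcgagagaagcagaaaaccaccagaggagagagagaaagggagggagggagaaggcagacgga
Kcnk2, a potassium channel gene, was at 2.07 and 3.88 CPM in D164A/- against 9.5 and 9.55 CPM in D164A/fl, 3.01 and 3.36 in ΔC/- against 10.7 and 25.6 in ΔC/fl, and 0.606 and 0.958 in dm/- against 8.601 and 8.74 in dm/fl. This too was called (log2 fold change -1.99, SE 0.25, adjusted p = 0.00632), with the promoter, that of a start inside the annotated gene, at chr1:189402224-189402523, minus strand.
Kcnk2: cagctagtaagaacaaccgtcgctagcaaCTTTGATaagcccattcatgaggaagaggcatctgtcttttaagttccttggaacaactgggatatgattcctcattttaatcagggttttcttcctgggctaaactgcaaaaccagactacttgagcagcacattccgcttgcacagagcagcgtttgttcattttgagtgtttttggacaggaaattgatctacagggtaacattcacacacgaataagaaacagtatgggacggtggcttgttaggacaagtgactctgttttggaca
In Bcat1 and Emp3 the D164A lines had low levels with either second allele and the effect there did not pass the test (adjusted p = 0.467 and 0.163), while Kcnk2 had effects of -1.44 in D164A, -2.08 in ΔC and -2.45 in dm.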

How the data were processed

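RNA of the cells was sequenced with a stranded kit, and the submitters' processing notes name STAR and mm10. The deposited table gives a signal per gene, and the authors name the values CPM, reads divided by a library size. Its column sums were 950410 to 1235580 for the 12 samples, so library sizes had been multiplied by scaling factors of 0.809 to 1.05, read from the smallest step between values of a column. All values (100%) were whole reads within 0.001 after that division. Reads assigned to genes numbered 22396315 to 31846078 per sample, and intervals or floors from reads cover counting error only. Of 20314 genes 20261 matched a RefSeq symbol, with coordinates and promoters from GRCm38.p6.

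Genes reaching 1 CPM in 2 or more of the 12 samples were fitted with limma 3.58.1 (R 4.3.3) on log2(CPM + 1) with a variance trend, mutant allele as a block and second allele as the tested term (8 residual degrees of freedom), two-sided, with Benjamini-Hochberg adjustment over all genes tested. Calls needed an adjusted p of at most 0.05 and a log2 fold change of at least 1 in size. Effects within mutants and their difference (F-test) came from a fit with a coefficient per genotype, and the interaction with TGFβ from 24 samples. edgeR 4.0.16 (quasi-likelihood) on the whole reads called 342 genes. Tables and figures used Python 3.11.15, pandas 2.3.3, numpy 2.4.6 and matplotlib 3.10.9. The additive fit and the F-test were also run on simulated reads, in which changed genes had the same fold in every mutant. Effects within mutants and the interaction were not simulated.

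The members and lists were chosen with earlier results of these data known. Named genes were Ctnnb1, the 12 higher and 12 lower agreeing genes with the largest change in their least affected mutant, up to 4 members of each list with the smallest adjusted p and all its agreeing members, up to 5 genes each way called for a difference between mutants (by the sign of the mutant effect largest in size), and the identity genes. The rule selects 146 genes. Some of them are not reported here. Of 90 described, 25 fall outside it and were chosen after their values were seen: Vim, Erbb3, Mki67, Ccnb1, Postn, Csf1r, Mapkapk3, Gm13648, Hspb8, Syk, Bcat1, Emp3, Kcnk2 and 12 members of the 4 lists drawn up after values were seen. Alternatives tried were another pseudocount, no filter, median-of-ratios scaling, edgeR, replicate and crossed blocks, removal of a GC trend, other designs and thresholds, and leaving out each library or mutant. Samples with 2 floxed alleles entered only the alternative with all 28 samples of the TGFβ experiment, for the spread.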

Additional observations from a re-analysis of the deposited data

Results flagged for a closer look

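Every result here is an effect of the deleted second allele that differed between the 3 TGFβ-treated mutants by the F-test of limma over the interaction terms. Samples far from the rest of their group could not be looked for, since each group has 2 samples. The difference was called at 6842 genes, among them the 825 called in opposite directions in at least 2 mutants and 86 of the 177 agreeing genes (48.6%). It was called at 53.2% of all genes tested, at 37 of 42 cell cycle and replication genes (88.1%), at 34 of 42 epithelial junction and polarity genes (80.95%) and at 19 of 27 mesenchymal and EMT genes (70.4%).

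Among the genes chosen for the largest single effect upward, Lcn2, which encodes the iron-binding lipocalin 2, had 1011 and 851 CPM in D164A/- against 2604 and 2852 CPM in D164A/fl, 159 and 13.8 in ΔC/- against 0.0486 and 11.5 in ΔC/fl, and 516 and 254 in dm/- against 1.65 and 0.362 in dm/fl, and its 3 log2 fold changes spanned 9.13. Igf2, a growth factor gene expressed from the paternal allele, had 0.882 and 0.1099 CPM in D164A/- against 0.186 and 0.272 CPM in D164A/fl, 3.97 and 3.2 in ΔC/- against 0.0973 and 1.49 in ΔC/fl, and 222 and 112 in dm/- against 0.0312 and 0.0329 in dm/fl, a span of 7.03. Peg3, a zinc-finger gene that is also paternally expressed, had 84.4 and 68.6 CPM in D164A/- against 6.16 and 10.6 CPM in D164A/fl, 0.193 and 0.277 in ΔC/- against 0.778 and 0.298 in ΔC/fl, and 43.5 and 47.2 in dm/- against 0 and 0 in dm/fl, a span of 5.83. High levels of Igf2 were seen in dm/- alone, and of Peg3 in D164A/- and dm/-. For Ccn5, a matricellular protein gene, the span was 9.15 (effects of 2.58 in D164A, -3.43 in ΔC and 5.72 in dm), and for Cldn7, which encodes a tight junction claudin, 6.29 (effects of -0.85 in D164A, 1.66 in ΔC and 5.44 in dm).

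Among those chosen for the largest effect downward, Xist, the non-coding RNA of X inactivation, had 771 and 881 CPM in D164A/- against 443 and 345 CPM in D164A/fl, 945 and 660.5 in ΔC/- against 212 and 363 in ΔC/fl, and 0.151 and 0.0991 in dm/- against 1092 and 1335 in dm/fl, a span of 11.57. It was all but absent from dm/- and higher in the deleted samples of the other mutants. Fstl1, a secreted glycoprotein gene, had 0.485 and 0.147 CPM in D164A/- against 0.0371 and 0.0388 CPM in D164A/fl, 0.579 and 0.079 in ΔC/- against 963 and 425 in ΔC/fl, and 1.02 and 2.25 in dm/- against 0.561 and 0.296 in dm/fl, a span of 9.79, and was high in ΔC/fl alone. Dpysl3 spanned 7.71 with effects of -0.97 in D164A, -8.67 in ΔC and -4.50 in dm, Nrep 10.73 with 2.36 in D164A, -8.37 in ΔC and -0.40 in dm, and Prune2 8.15 with -0.05 in D164A, -8.20 in ΔC and -0.32 in dm. Where a group lies at 3 reads or fewer, as for Igf2 and Peg3 in dm/fl, the size of the effect depends on the added 1 CPM.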

How the results depend on the processing

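The number of called genes, 210, was 325 with a pseudocount of 0.1, 119 without the filter on low values, 342 with edgeR, 406 without a minimum fold change, 965 with 6 genotype coefficients, 985 when all 28 samples of the TGFβ experiment shared the spread, 1148 without the D164A lines and 513 without the ΔC lines. Median-of-ratios scaling gave 211, removal of the GC trend 294 and leaving out the dm lines 184. Leaving out each library gave 72 to 240. Of the agreeing genes, 177, there were 114 without the filter, 265 with the smaller pseudocount, 242 with edgeR and 201 after removal of the GC trend, of which 114, 176, 160 and 129 were shared with the 177. They were 869 by separation of the groups without the call, 40 when called in each mutant separately, and 72 to 216 on leaving out each library.

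With the replicate block, in which replicate numbers pair deleted with floxed samples, 0 genes were called and 0 agreed by limma (1910 at an unadjusted p under 0.05), also after removal of the GC trend (0 and 0), and 6 by edgeR (1838). Across genes, the deviations of replicate 1 from its group mean in deleted and floxed samples of a mutant had correlations of -0.117 (D164A), -0.136 (ΔC) and -0.00291 (dm) with TGFβ, which gives no sign of pairing. In untreated cells the values were 0.305, 0.288 and -0.118. The block crossed the other way called 0 genes over the mutants and 1950, 2459 and 2980 within D164A, ΔC and dm.

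Within D164A, leaving out each library gave 1196 to 2002 genes, within ΔC 1902 to 2734, within dm 2083 to 3403, and for the difference between mutants 5143 to 7433. Other settings kept these 4 counts within 1.5 times. The interaction of deletion with TGFβ gave 0 to 2 genes on leaving out each library, 244 without D164A, 3 without ΔC and 1 without dm.

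For untreated cells of that experiment (425 genes), 275 were called without the filter and 45 with the block. With Wnt3a (91), 198 were called with the pseudocount of 0.1, 33 without the filter, 214 with edgeR, 12 with the block and 157 after removal of the GC trend. In untreated cells of the Wnt3a experiment (20), the numbers were 68, 5, 87, 2 and 88 in that order, and 18 of the last 88 were higher, beside 0 of 20. Without the ΔC lines, log2 fold changes turned sign for Epcam (-0.11), Krt8 (-0.034), Krt18 (-0.055), Krt7 (-0.43), Postn (0.68) and Flt1 (0.31), and without the dm lines for Csf1r (0.93); none of these passed the test either way. Of 66 named genes called, 43 were called without the filter and 0 with the block. Without the D164A, ΔC or dm lines, 53, 44 and 32 of the 66 were still called. After removal of the GC trend, 56 of 64 were still called. Leaving out the lines for the interaction and named genes, untreated libraries, the crossed block and the alternatives for other treatments were added after seeing the data. Where a genotype is left with 1 library, that library is assumed to vary like the others. The cause of these changes was not tested. Depth limits genes at a few reads, where 1 read is 0.0312 to 0.0486 CPM.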

Other observations

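Of 29 p53 target genes, 13 were higher and 1 lower in D164A/- than in D164A/fl with TGFβ, while 1 was higher and 4 lower in ΔC/-, and 2 higher and 4 lower in dm/-, with medians of 0.71, -0.18 and -0.12. The difference between mutants was called at 24 of them (82.8%). Over all genes tested, 6.87% were higher in D164A/-, 8.94% in ΔC/- and 11.2% in dm/-, 7.84%, 9.86% and 11.9% were lower in the same order, and 53.2% were called for the difference. Of 43 interferon-stimulated genes, 13 were higher in D164A/-, 2 were higher and 8 lower in ΔC/-, and 11 higher and 3 lower in dm/-, and 21 (48.8%) were called for the difference, a share below that of all genes. Of 49 collagens and matrix genes, 27 were lower and 9 higher in ΔC/-, beside 13 lower in each of D164A/- and dm/- and 6 and 9 higher.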
